A study of Mus musculus with 12 samples.

Results

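The interferon-inducible GTPases are described here through 8 genes, 4 guanylate-binding proteins (GBPs: Gbp2, Gbp3, Gbp5 and Gbp7) and 4 immunity-related GTPases (IRGs: Irgm1, Irgm2, Ifi47 and Igtp). They were chosen by gene symbol out of 25124 entries in the deposited table, and all 8 were found there and lay above the minimum level for testing. RNA was measured in MC3T3-E1 cells, 1 line of mouse calvarial cells that can form osteoblasts, in 4 groups of 3 libraries. The series title concerns Smad4, the NF-kB subunit p65 and protection by BMP against inflammatory cell death. All cells were first kept in 2.5% serum for 30 min. The TNFa+BMP4 group received TNFa at 10 ng/mL and, 30 min later, BMP4 at 10 ng/mL for 3 h. The TNFa group received TNFa alone at 10 ng/mL, the BMP4 group BMP4 alone at 10 ng/mL for 3 h, and the untreated group neither factor. The sample characteristics list 3 h for TNFa as well, so the labels leave its exposure time unsettled, and they list 0 h for the untreated group. Time to harvest may thus differ between groups, and its part in the changes below cannot be told apart from that of the factors. The labels do not explain the word p65 in the titles of the TNFa libraries. No label says that the replicates were separate cultures, so p-values measure the spread between these libraries, which may be technical.

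GBPs and IRGs are GTP-hydrolysing proteins of cell-autonomous immunity, best known from cells exposed to interferon. GBPs assemble on the membranes of vacuoles that hold bacteria or parasites, and on bacteria themselves, and several of them promote inflammasome signalling. Among the IRGs, Irgm1, Irgm2 and Igtp (also called Irgm3) sit on the cell's own membranes and hold effector IRGs such as Ifi47 (also called Irgd) in an inactive state there. Their transcription in interferon-treated cells runs through transcription factors that bind the GAS and ISRE elements of promoters. TNFa is an inflammatory cytokine that activates NF-kB, and BMP4 signals through Smad proteins.

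The 8 genes lie on chromosomes 3 and 11, given here in mm10 coordinates of the transcripts in the table. The 4 GBP members lie in this order on the + strand of chromosome 3, with Gbp2b between the last 2: Gbp5 (NM_153564) from 142496934 to 142522344, Gbp7 (NM_145545) from 142530336 to 142550151, Gbp3 (NM_001355403) from 142560044 to 142573213 and Gbp2 (NM_010260) from 142620663 to 142638008. On chromosome 11, Irgm1 (NM_008326) spans 48865245 to 48871420 on the - strand and Ifi47 (NM_001271676) spans 49087017 to 49096987 on the + strand. Igtp (NM_018738, 58199556 to 58207592) and Irgm2 (NM_019440, 58214977 to 58222783) are neighbours on the + strand of the same chromosome.

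The bases just before the start of the transcript are shown here, and most of these windows hold the same element. They are RefSeq promoter sequences of GRCm38.p6, the assembly behind mm10, read 5′ to 3′ on the strand of the gene up to the last base before its start, 110 bases each and 250 for Gbp5. Capitals mark matches to the motifs named after the sequences.
Gbp2 (chr3:142620553-142620662, + strand): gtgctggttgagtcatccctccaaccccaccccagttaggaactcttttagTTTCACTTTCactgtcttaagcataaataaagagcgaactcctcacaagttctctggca
Gbp3 (chr3:142559934-142560043, + strand): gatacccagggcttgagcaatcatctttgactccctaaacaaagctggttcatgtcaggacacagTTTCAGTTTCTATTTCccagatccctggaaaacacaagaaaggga
Gbp5 (chr3:142496684-142496933, + strand): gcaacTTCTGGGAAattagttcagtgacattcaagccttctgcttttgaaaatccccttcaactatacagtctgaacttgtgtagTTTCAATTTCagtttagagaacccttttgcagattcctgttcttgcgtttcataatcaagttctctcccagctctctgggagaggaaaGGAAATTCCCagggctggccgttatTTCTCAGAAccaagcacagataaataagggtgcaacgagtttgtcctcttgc
Gbp7 (chr3:142530226-142530335, + strand): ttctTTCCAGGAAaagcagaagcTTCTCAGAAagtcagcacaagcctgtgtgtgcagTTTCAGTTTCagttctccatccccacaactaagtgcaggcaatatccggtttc
Irgm1 (chr11:48871421-48871530, - strand): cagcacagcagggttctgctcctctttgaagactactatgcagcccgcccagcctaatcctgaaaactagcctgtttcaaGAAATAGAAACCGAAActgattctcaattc
Irgm2 (chr11:58214867-58214976, + strand): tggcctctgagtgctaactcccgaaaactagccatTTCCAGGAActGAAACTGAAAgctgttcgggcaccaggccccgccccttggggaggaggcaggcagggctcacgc
Igtp (chr11:58199446-58199555, + strand): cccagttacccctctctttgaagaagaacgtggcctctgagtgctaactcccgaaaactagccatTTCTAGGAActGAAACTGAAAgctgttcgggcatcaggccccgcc

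The promoters were searched for 3 motifs on both strands of the 250 bases before the start, namely the ISRE core (GAAA, any 2 bases, then GAAA), the GAS core TTCNNNGAA and the NF-kB consensus. Of the 8 members, 7 had a RefSeq window at the start used in the table, and the ISRE core matched in each of those 7, against 2.98% of 32841 promoter windows of the same length. The RefSeq window of Ifi47 lies at another start (chr11:49076337-49076586, before 49076587) and held 0 matches to any of the 3 motifs, and the bases before its start in the table were not searched. A further window of Gbp3, at another start, held none either. The matches lay close to the start in Irgm1 (30 to 21 and 24 to 15 bases before it, overlapping each other), Igtp (34 to 25), Gbp3 (45 to 36 and 39 to 30, also overlapping), Gbp7 (53 to 44), Gbp2 (59 to 50) and Irgm2 (64 to 55). In Gbp5 the match lay farther out, at 165 to 156. The GAS core matched in 4 of them, Gbp5, Gbp7, Irgm2 and Igtp, against 7.02% of all windows, and the NF-kB consensus in Gbp5 alone, at 77 to 68, against 3.9%. Irgm2 and Igtp shared 100 of 110 bases (90.9%) when their windows were shifted by 30 bases. A match is a string of letters, and no binding was measured. The part of these motifs in the changes of the members was not tested.

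**Figure D1:**
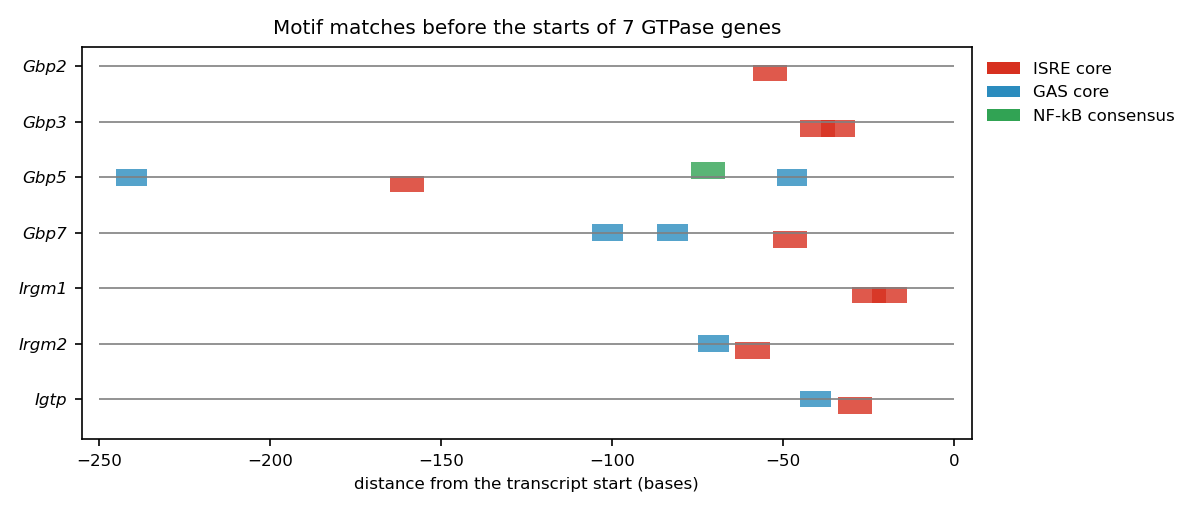
Motif matches by distance from the transcript start (bases before the start on the horizontal axis, 1 row for each of 7 members), coloured by motif. ISRE core matches lie within 64 bases of the start in 6 members and at 165 to 156 bases in Gbp5, and Ifi47, whose window lies at another start and held 0 matches, is not drawn.

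Tag totals were 13.7 to 15.5 M per library and 20.6 M in TNFa+BMP4 replicate 2. The labels place replicate 1 of each group in batch 1 and replicates 2 and 3 in batch 2, and changes are given after an additive batch term. Irgm1 was 0.73 higher in batch 2 than in batch 1 on the log2 scale (limma adjusted p = 3.294e-09), Gbp3 0.26 and Ifi47 0.17 higher, while the batch difference of Igtp was -0.27. The labelled cell type was checked against markers. Col1a1, the main bone collagen, stood at 17.07 to 17.72 in all libraries, and of 10 osteoblast markers 7 lay above the minimum level, among them Spp1 (osteopontin, group means 12.42 to 12.62) and the transcription factor Sp7 (4.78 to 5.93). Alpl, Bglap and Ibsp lay below it. Of 10 leukocyte markers 3 lay above the minimum level, Cd14 (group means 5.82 to 5.96), Lyz2 (4.64 to 4.78) and Cd68 (4.42 to 4.55), and 0 of the 3 were called for TNFa against untreated cells or for TNFa+BMP4 against TNFa. Adgre1, Tyrobp and Cd3e were listed at 0 in every library and the pan-leukocyte gene Ptprc stood at -1.97 to -1.96. The log2 values of the 10 summed to 14.63 to 14.73 in TNFa+BMP4, 14.55 to 14.86 in TNFa, 14.31 to 14.67 in BMP4 and 14.72 to 14.83 in untreated cells. In a bulk sample, fewer expressing cells and less RNA per cell cannot be told apart.

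With TNFa alone all 8 members were higher than in untreated cells, a comparison in which 9.16% of the 11765 genes tested rose. A gene was called where limma's Benjamini-Hochberg adjusted p, taken over all tested genes, was under 0.05. The median change of the members was 1.44 on the log2 scale, against -0.009 for all tested genes. The GBPs rose by 3.28 (Gbp2), 2.10 (Gbp7), 1.93 (Gbp3) and 1.45 (Gbp5), and the IRGs by 1.43 (Irgm2), 1.43 (Igtp), 1.34 (Ifi47) and 0.85 (Irgm1). In order of rise Gbp2 was number 4 of all tested genes and Gbp7 number 16. The 3 TNFa libraries lay above the 3 untreated ones for every member, as they did for 9.5% of tested genes.

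Gbp2, which in mice is recruited to vacuoles of Toxoplasma, had log2 values of 11.10, 10.83 and 10.81 in TNFa cells, against 7.81, 7.57 and 7.54 in untreated cells (replicates 1, 2 and 3 here and below). The groups were far apart, and the change was 3.28 ± 0.08 (SE, n = 3 each), a 9.69-fold rise on this scale (limma adjusted p = 2.165e-17). Gbp7 had 7.90, 8.03 and 8.07 in TNFa cells, against 5.97, 5.86 and 5.86 in untreated cells. Its change was 2.10 ± 0.11 (limma adjusted p = 8.791e-12), with little spread in either group. Gbp3 had 6.69, 7.30 and 7.07 in TNFa cells, against 5.11, 5.07 and 5.09 in untreated cells. The batch 1 library was the lowest of the TNFa group, and the change was 1.93 ± 0.11 (limma adjusted p = 1.712e-11). Gbp5, which promotes NLRP3 inflammasome assembly, had 5.89, 5.91 and 5.79 in TNFa cells, against 4.43, 4.43 and 4.40 in untreated cells. These were the lowest levels among the members, and the change was 1.45 ± 0.09 (limma adjusted p = 1.259e-10).

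Irgm2, a regulatory IRG found at the Golgi, had 8.65, 8.08 and 8.17 in TNFa cells, against 6.91, 6.84 and 6.84 in untreated cells. Its change was 1.43 ± 0.10 (limma adjusted p = 8.728e-10), and the batch 1 library was the highest of the TNFa group. Igtp, a regulatory IRG of the endoplasmic reticulum, had 7.46, 7.05 and 6.90 in TNFa cells, against 5.94, 5.51 and 5.66 in untreated cells, with batch 1 again highest in both groups. Its change was 1.43 ± 0.10 (limma adjusted p = 4.775e-10). Ifi47, the effector IRG, had 7.17, 7.20 and 7.26 in TNFa cells, against 5.77, 5.94 and 5.90 in untreated cells, a change of 1.34 ± 0.08 (limma adjusted p = 5.668e-11). Irgm1, needed in mice for resistance to mycobacteria, had 9.92, 10.52 and 10.42 in TNFa cells, against 9.09, 9.62 and 9.59 in untreated cells. It moved least, by 0.85 ± 0.08 (limma adjusted p = 1.436e-07), and in both groups its batch 1 library was the lowest. Within batches the 8 changes ran from 0.82 to 3.30 in batch 1 and from 0.87 to 3.27 in batch 2. Without a batch term Irgm1 missed the threshold in this comparison (limma adjusted p = 0.2635) and in the others below.

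**Figure D2:**
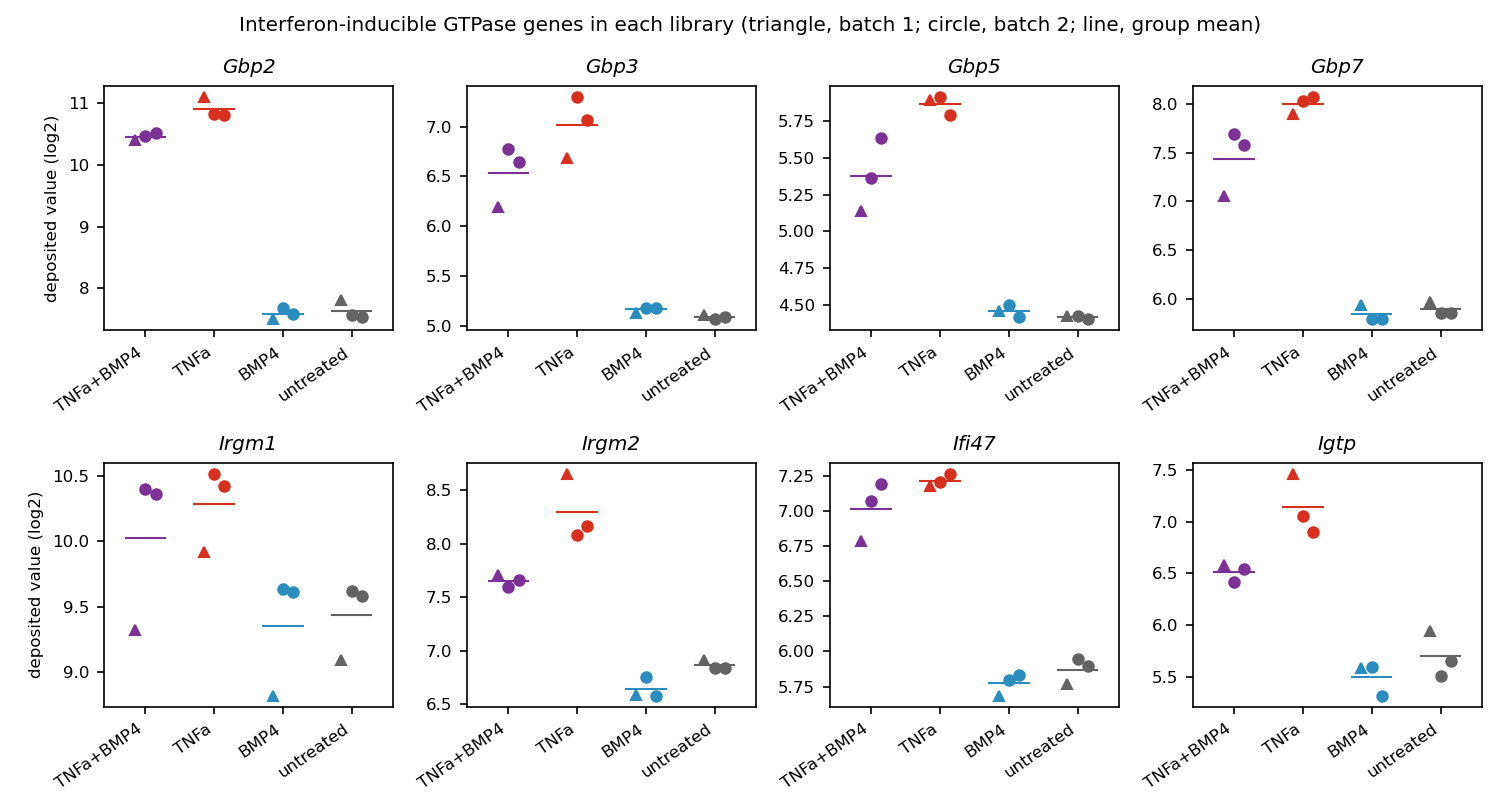
Deposited log2 value of each member in each of the 12 libraries, with groups in the order TNFa+BMP4, TNFa, BMP4 and untreated; triangles mark batch 1, circles batch 2 and short lines the group means, and each gene has its own axis range. The TNFa libraries lie above the untreated ones for all 8 genes, and Irgm1 shows the batch difference of 0.73.

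Per kilobase of transcript, the order of the members differed between the groups. These values are library values less the log2 of the transcript length in kb. The transformation behind the library values is not named, so the orders may not be those of transcript abundance. In TNFa cells Gbp2 had the highest mean (9.63 log2 per kb), followed by Irgm1 (9.08), Irgm2 (6.49), Ifi47 (6.26), Igtp (6.12), Gbp3 (5.52), Gbp7 (5.51) and Gbp5 (4.28). In untreated cells Irgm1 was highest (8.23), followed by Gbp2 (6.35), Irgm2 (5.05), Ifi47 (4.92), Igtp (4.69), Gbp3 (3.59), Gbp7 (3.41) and Gbp5 (2.83). The neighbours Gbp3 and Gbp7 were closer in TNFa cells than the SD of Gbp3 there (0.31), and Ifi47 and Igtp were closer there than the SD of Igtp (0.29). In untreated cells Irgm2 and Ifi47 differed by more than the SD of either (0.04 and 0.09), and Gbp3 and Gbp7 by more than theirs (0.02 and 0.06).

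With BMP4 given after TNFa, 7 of the 8 members were lower than with TNFa alone, where 6.2% of tested genes fell. The median change was -0.48, against 0.0023 for all tested genes. Irgm2 (-0.65 ± 0.10, limma adjusted p = 0.0001881) and Igtp (-0.62 ± 0.10, limma adjusted p = 0.0001835) fell most, to 0.639 and 0.650 of their TNFa levels on this scale. Ifi47 did not pass, at -0.20 ± 0.08 (limma adjusted p = 0.1164, 95% interval -0.37 to -0.03). In 5 members, Gbp2, Gbp5, Gbp7, Irgm2 and Igtp, the TNFa+BMP4 libraries lay below all TNFa libraries, as they did for 7.81% of tested genes.

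Irgm2 had 7.71, 7.59 and 7.66 in TNFa+BMP4 cells, against 8.65, 8.08 and 8.17 in TNFa cells, and Igtp had 6.58, 6.42 and 6.55 in TNFa+BMP4 cells, against 7.46, 7.05 and 6.90 in TNFa cells. Neither pair of groups overlapped, and in both genes the gap was widest in batch 1. Gbp7 had 7.05, 7.69 and 7.58 in TNFa+BMP4 cells, against 7.90, 8.03 and 8.07 in TNFa cells, a change of -0.56 ± 0.11 (limma adjusted p = 0.002064). Gbp5 had 5.14, 5.36 and 5.63 in TNFa+BMP4 cells, against 5.89, 5.91 and 5.79 in TNFa cells, a change of -0.49 ± 0.09 (limma adjusted p = 0.0009806). Both were lowest in TNFa+BMP4 replicate 1, and without that library the changes were -0.35 for Gbp7 and -0.36 for Gbp5 (limma adjusted p = 0.02374 and 0.01507).

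Gbp2 had 10.40, 10.46 and 10.52 in TNFa+BMP4 cells, against 11.10, 10.83 and 10.81 in TNFa cells. It fell by 0.46 ± 0.08 (limma adjusted p = 0.0005798), and its TNFa+BMP4 libraries were close together. Gbp3 had 6.19, 6.78 and 6.64 in TNFa+BMP4 cells, against 6.69, 7.30 and 7.07 in TNFa cells. The groups overlapped across batches while each batch showed the fall, and the change was -0.48 ± 0.11 (limma adjusted p = 0.004786), or 0.05493 as adjusted p without TNFa+BMP4 replicate 1. Irgm1 had 9.32, 10.40 and 10.36 in TNFa+BMP4 cells, against 9.92, 10.52 and 10.42 in TNFa cells. Its groups overlapped, and its change of -0.26 ± 0.08 was just past the threshold (limma adjusted p = 0.04805). Without TNFa+BMP4 replicate 1 the Irgm1 change was -0.11 (limma adjusted p = 0.414), without TNFa replicate 1 -0.18 (0.2706) and without TNFa replicate 2 -0.27 (0.112). It also missed the threshold without BMP4 replicate 2 (0.05741), BMP4 replicate 3 (0.0606) or untreated replicate 2 (0.05876). Ifi47 had 6.79, 7.07 and 7.19 in TNFa+BMP4 cells, against 7.17, 7.20 and 7.26 in TNFa cells, with 1 library overlapping.

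The fall was larger in batch 1 than in batch 2 for all 8 members. Within batch 1 the differences ran from -0.95 to -0.39, and within batch 2 from -0.50 to -0.09. With no batch term in the model 0 of the 8 members were called lower, with limma adjusted p from 0.05199 to 0.9889. With batch 2 alone, 6 were called. The 6.2% of tested genes given above belongs to the fit of all 12 libraries, and no share is given for batch 2 alone.

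**Figure D3:**
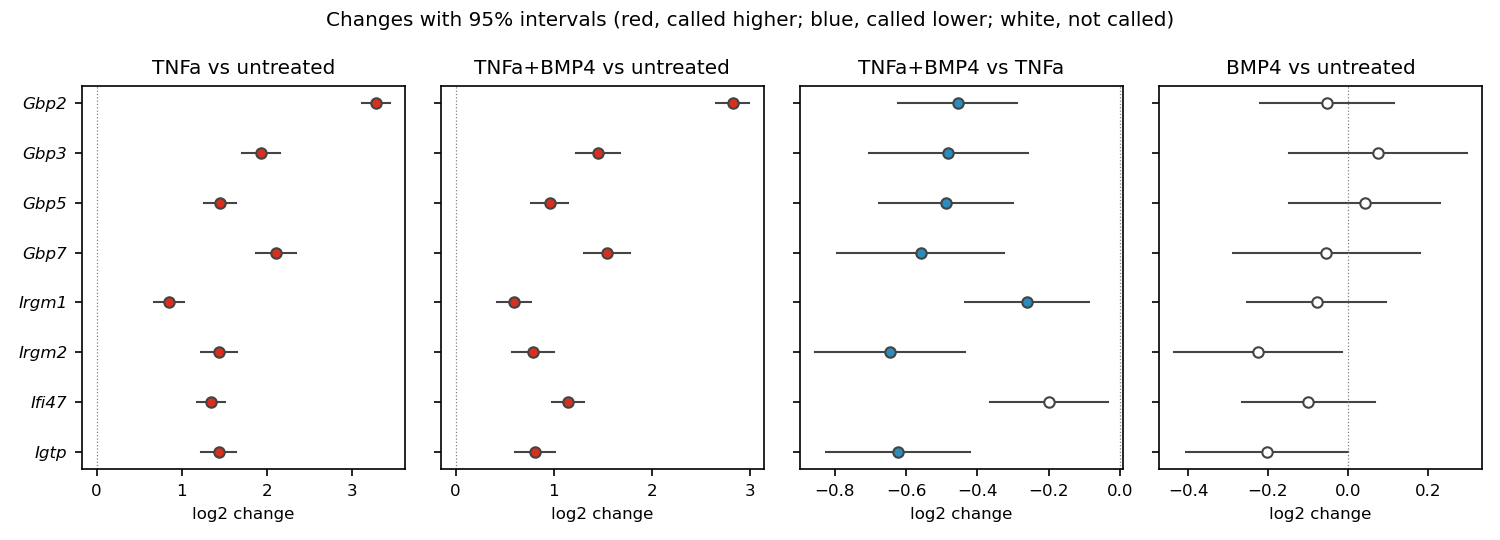
Log2 change of each member with its 95% interval in 4 comparisons fitted by limma with a batch term (red, called higher; blue, called lower; white, not called). All 8 lie above 0 for TNFa against untreated cells, and all 8 lie below 0 for TNFa+BMP4 against TNFa, from -0.65 for Irgm2 to -0.20 for Ifi47.

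Cells given both factors still carried more of every member than untreated cells. All 8 were called higher, where 16.8% of tested genes rose, with a median of 1.05. The changes were 2.82 for Gbp2, 1.54 for Gbp7, 1.45 for Gbp3, 1.14 for Ifi47, 0.96 for Gbp5, 0.81 for Igtp, 0.79 for Irgm2 and 0.59 for Irgm1, beside 3.28, 2.10, 1.93, 1.34, 1.45, 1.43, 1.43 and 0.85 in TNFa cells, and both comparisons use the same untreated libraries. The groups did not overlap for 7 members, as for 13.7% of tested genes, and Irgm1 overlapped. Against BMP4 alone, all 8 were higher as well, where 8.78% of tested genes rose, from 0.67 ± 0.08 for Irgm1 to 2.87 ± 0.08 for Gbp2 (limma adjusted p = 4.468e-06 and 3.03e-16).

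BMP4 alone did not move any member past the threshold, where 12.2% of tested genes were called in either direction. At an unadjusted p under 0.05 there was 1 of the 8, against 25.8% of tested genes, and the authors' deposited table calls 0, where it calls 3.07% of its entries higher and 2.05% lower. Irgm2 had 6.59, 6.76 and 6.58 in BMP4 cells, against 6.91, 6.84 and 6.84 in untreated cells. Its BMP4 libraries were all lower, as for 6.91% of tested genes, and the difference was -0.22 ± 0.10 (limma adjusted p = 0.1622, 95% interval -0.44 to -0.01). The BMP4 libraries of Gbp3 were all higher, as for 7.73% of tested genes, at 5.13, 5.18 and 5.18 in BMP4 cells, against 5.11, 5.07 and 5.09 in untreated cells, a difference of 0.08 ± 0.11 (limma adjusted p = 0.7249). Igtp had 5.59, 5.60 and 5.32 in BMP4 cells, against 5.94, 5.51 and 5.66 in untreated cells, a difference of -0.20 ± 0.10 (limma adjusted p = 0.1974). The other 6 lay between -0.10 (Ifi47) and 0.08 (Gbp3), with intervals reaching from -0.29 to 0.30 over those 6. These intervals hold on the scale of the library values only. The authors' deposited log2 fold changes for the same comparison ran from -0.73 (Igtp) to 2.23 (Gbp5), where the library values of Gbp5 gave 0.04. Gbp2 had 7.50, 7.68 and 7.58 in BMP4 cells, against 7.81, 7.57 and 7.54 in untreated cells, and the groups overlapped.

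The interaction asks whether the TNFa change differs with BMP4 present. It was negative for all 8 members, with a median of -0.42, and none was called. Limma called 2 of all tested genes (0.017%), and the smallest adjusted p among the members was 0.3248, for Gbp5. At an unadjusted p under 0.05 there were 6 of 8 members, against 4.76% of tested genes. Those were Gbp3 (-0.56 ± 0.15), Gbp5 (-0.53 ± 0.13), Gbp7 (-0.51 ± 0.16), Irgm2 (-0.42 ± 0.14), Igtp (-0.42 ± 0.14) and Gbp2 (-0.40 ± 0.11). Irgm1 (-0.18) and Ifi47 (-0.10) had intervals that included 0. The difference in the TNFa response did not pass this test for any member.

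The authors' deposited table gives larger log2 fold changes with TNFa for all 8 members, with the widest gap in Gbp5, the member with the lowest levels. For TNFa against untreated cells it gives 9.27 for Gbp5, 4.99 for Gbp3, 3.85 for Gbp2, 3.54 for Gbp7, 2.70 for Igtp, 2.49 for Ifi47, 2.04 for Irgm2 and 0.96 for Irgm1, and it calls all 8 higher, where it calls 5.76% of its entries. The library values of Gbp5 differ by 1.45 for the same contrast, and the cause of the gap between the scales was not tested. For TNFa+BMP4 against TNFa, the authors' deposited table calls 6 members lower, where it calls 3.56% of its entries. The 6 are Igtp (-0.95), Gbp5 (-0.93), Irgm2 (-0.84), Gbp3 (-0.73), Gbp7 (-0.72) and Gbp2 (-0.49), and it does not call Irgm1 (adjusted p = 0.3042) or Ifi47 (0.3237).

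**Figure D4:**
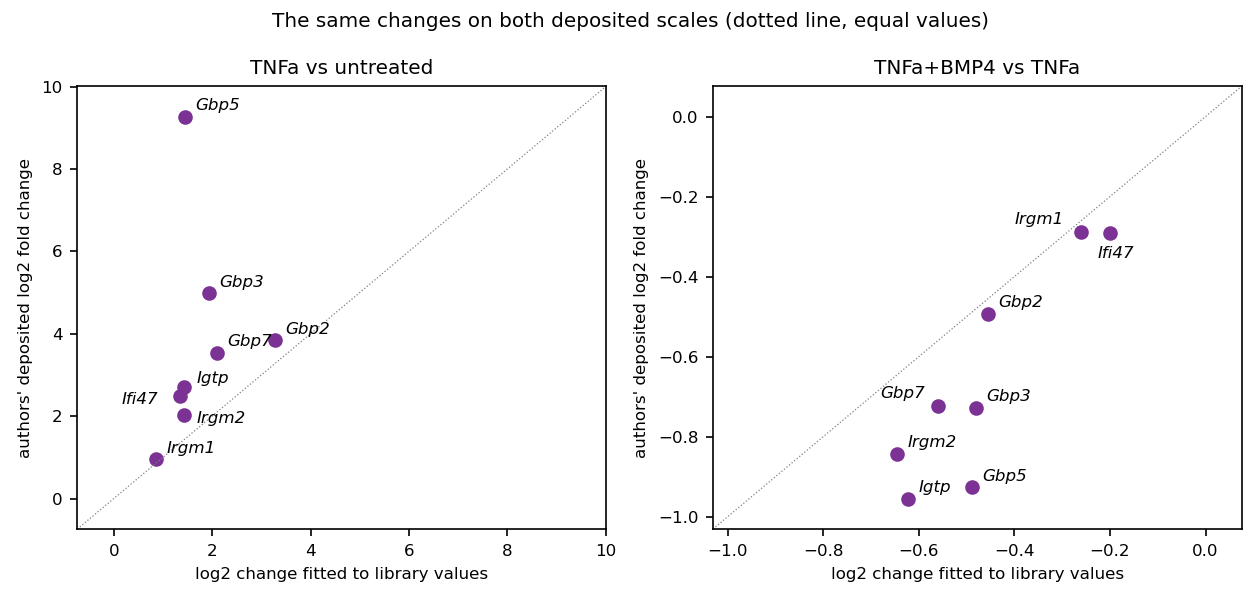
Log2 change fitted to the library values (horizontal) against the authors' deposited log2 fold change (vertical) for the 8 members, for TNFa against untreated cells and for TNFa+BMP4 against TNFa. The dotted line marks equal values; Gbp5 lies farthest from it on the left, at 1.45 and 9.27.

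Reads of related or overlapping genes can be split between entries, and whether the authors counted by strand is not given in the sources used here. Of 75-base windows of the longest transcript, 11.4% of those of Gbp7 also occur in other genes, Gbp3 and the pseudogene Gm43802. Igtp shares 8.37% of its windows with Irgm2, and Irgm2 shares 4.29% of its own with Igtp and further genes. The annotated exons of Igtp and Irgm2 overlap by 162 bases. For Gbp3, Ifi47, Gbp5 and Gbp2 the share was 2.68%, 2.30%, 1.03% and 0.983%, and for Irgm1 it was 0.

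Other family genes lay mostly below the minimum level. Of 8 other GBP genes listed, 7 were found and 0 were tested, and of 6 other IRG genes found only Irgq was tested, at 0.20 ± 0.07 for TNFa against untreated cells (limma adjusted p = 0.05516). Gbp2b, which lies between Gbp3 and Gbp2 on chromosome 3, stood at -2.21 in every library. The authors' deposited table calls 4 of these genes higher with TNFa: Iigp1 (log2 fold change 4.59, adjusted p = 8.674e-06), Gbp6 (4.27, 1.837e-08), Gbp9 (3.81, 0.002827) and Tgtp2 (2.06, 0.04582). In the same table Gbp6 is lower in TNFa+BMP4 than in TNFa cells (-1.33, adjusted p = 0.01206). Gbp6 shares 55.2% of its windows with other genes, Gbp10 75.5%, Tgtp1 87.7% and Tgtp2 85.2%, so their counts are uncertain.

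The NF-kB subunits and interferon receptors were called higher with TNFa, and none of them was called in TNFa+BMP4 against TNFa. All 5 NF-kB subunits were higher with TNFa, among them Relb (2.56 ± 0.08), Nfkb2 (1.93 ± 0.05), Nfkb1 (0.83 ± 0.08) and Rela (0.78 ± 0.05), and 0 of 5 were called in TNFa+BMP4 against TNFa (median -0.06). Of 11 interferon ligands and receptors, 5 were tested and all 5 rose with TNFa, led by Ifngr2 (1.24 ± 0.06) and Ifngr1 (0.79 ± 0.05), with Ifnar1 at 0.43 and Ifnar2 at 0.31. The Ifnar2 call was lost without TNFa replicate 1 (0.27, limma adjusted p = 0.06387) or untreated replicate 1 (0.28, 0.05203). In TNFa+BMP4 against TNFa 0 of these 5 were called (median -0.05). Another 5 of the 11, among them the ligands Ifnb1 and Ifng, were listed at 0 in every library.

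Signal transducers of the interferon pathway were called in both directions. Of 16 tested JAK, STAT and IRF genes, 13 rose with TNFa (median 0.48), and in TNFa+BMP4 against TNFa 5 fell and 2 rose (median -0.13), where 6.2% of tested genes fell and 5.47% rose. Stat2, a partner of interferon regulatory factors at ISRE elements, rose by 0.53 ± 0.07 with TNFa and was -0.34 ± 0.07 in TNFa+BMP4 against TNFa (limma adjusted p = 0.001937). Irf1, a transcription factor that acts on ISRE-containing promoters, rose by 1.27 ± 0.10 with TNFa, while its value in TNFa+BMP4 against TNFa was -0.15 ± 0.10 (limma adjusted p = 0.397).

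Other interferon-stimulated genes had values of the same signs as the members with TNFa and in TNFa+BMP4 against TNFa, but not the same calls with BMP4 alone. Of 13 tested antiviral genes, 12 rose with TNFa (median 1.12) and 12 fell in TNFa+BMP4 against TNFa (median -0.38). Parp14 rose by 1.93 ± 0.09 and then fell by 0.74 ± 0.09 (limma adjusted p = 1.825e-05), and Ifit1, which binds viral RNA, rose by 1.57 ± 0.16 and then fell by 0.68 ± 0.16 (limma adjusted p = 0.008883). Without TNFa replicate 1 the Ifit1 value was -0.40 (limma adjusted p = 0.1059). Of 10 tested class I presentation genes, 9 rose with TNFa (median 1.16) and 5 fell in TNFa+BMP4 against TNFa (median -0.25). Psmb10, an immunoproteasome subunit, rose by 1.84 ± 0.08 and Tapbp, the peptide-loading protein tapasin, by 1.66 ± 0.07, and both were -0.29 in TNFa+BMP4 against TNFa. The Psmb10 call was lost without any 1 of 4 libraries and the Tapbp call without either of 2. With BMP4 alone against untreated cells, 4 of the 13 antiviral genes and 3 of the 10 class I genes were called lower. None of the members was called there, and 12.2% of tested genes were called in either direction.

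Genes whose products work with these GTPases, or resemble them, gave limma calls that differed between lists. Of all tested genes, 9.16% rose with TNFa, and in TNFa+BMP4 against TNFa 6.2% fell and 5.47% rose. Of 3 tested inflammasome genes 2 rose with TNFa, Casp4 (1.61 ± 0.09), the caspase that senses lipopolysaccharide, and Gsdmd (1.26 ± 0.09), the pore-forming gasdermin, and 0 were called in TNFa+BMP4 against TNFa. Of 10 tested ATG8 conjugation genes, whose products help target GBPs and IRGs to vacuoles, 1 rose with TNFa, Gabarapl1 (0.18 ± 0.06, limma adjusted p = 0.03738). That call held in 7 of 12 fits that left out 1 library and was lost without TNFa replicate 1 or 3 or any 1 of the untreated libraries (0.13 to 0.20, largest adjusted p 0.2412). In TNFa+BMP4 against TNFa Gabarapl1 was the 1 gene of the list called, at -0.25 ± 0.06 (limma adjusted p = 0.007272), or -0.20 without TNFa replicate 1 (0.07955). Of 3 other dynamin-like GTPases tested, Atl1, Atl2 and Atl3, 0 were called in either comparison. Mx1, of the same list, lay below the minimum level. The authors' deposited table calls Mx1 higher with TNFa (log2 fold change 2.96, adjusted p = 0.01449) and lower in TNFa+BMP4 than in TNFa cells (-3.37, 0.006065). It calls Atl3 lower with TNFa (-0.14, 0.04028). Of 7 tested osteoblast markers 2 fell with TNFa, Runx2, the lineage transcription factor (-0.60 ± 0.07), and Postn, which encodes the matrix protein periostin (-0.25 ± 0.06, limma adjusted p = 0.006588). Sp7 had group means of 4.78 in TNFa and 5.13 in untreated cells, and limma did not call it. Over 12 fits that left out 1 library its change ran from -0.45 to -0.13, and it stayed uncalled in 8 of them. The authors' deposited table calls Sp7 lower with TNFa (log2 fold change -1.72, adjusted p = 0.01394). In TNFa+BMP4 against TNFa, where the members fell, 3 of the 7 were higher: Sp7 (0.55 ± 0.12, limma adjusted p = 0.004389), Runx2 (0.22 ± 0.07, 0.03655) and Postn (0.22 ± 0.06, 0.02555). The Sp7 call was lost without TNFa replicate 1 (0.33, limma adjusted p = 0.0577), and the Runx2 call without any 1 of the TNFa libraries or without TNFa+BMP4 replicate 2 or 3 (0.18 to 0.24, largest adjusted p 0.1733). The Postn call in this comparison was lost without TNFa+BMP4 replicate 1 or 2 or TNFa replicate 1 or 2 (0.17 to 0.22, largest adjusted p 0.1633), and its call with TNFa alone without untreated replicate 2 (-0.19, 0.05251). Before the batch term Postn was widely spread, with SDs of 1.77 in untreated, 1.84 in TNFa and 1.91 in TNFa+BMP4 cells. Its libraries ran from 8.90 to 12.03, 8.61 to 11.86 and 8.81 to 12.16 in these groups, which overlapped. The SE of 0.06 is taken after the batch term. Of 4 endothelial markers only Pecam1 was tested, and it was 0.46 ± 0.08 higher in TNFa+BMP4 than in TNFa cells (limma adjusted p = 0.0003197). The other endothelial markers did not follow it. Tek had group means of 3.27 in TNFa+BMP4 and 3.35 in TNFa cells, Cdh5 stood at -2.21 in both, and Kdr was listed at 0 in every library. The log2 values of the 4 summed to 6.19 to 6.36 in TNFa+BMP4 and 5.81 to 6.05 in TNFa cells, and these sums include Pecam1 (means 5.21 and 4.76). The part of the osteoblast and endothelial markers in the fall of the members was not tested.

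**Figure D5:**
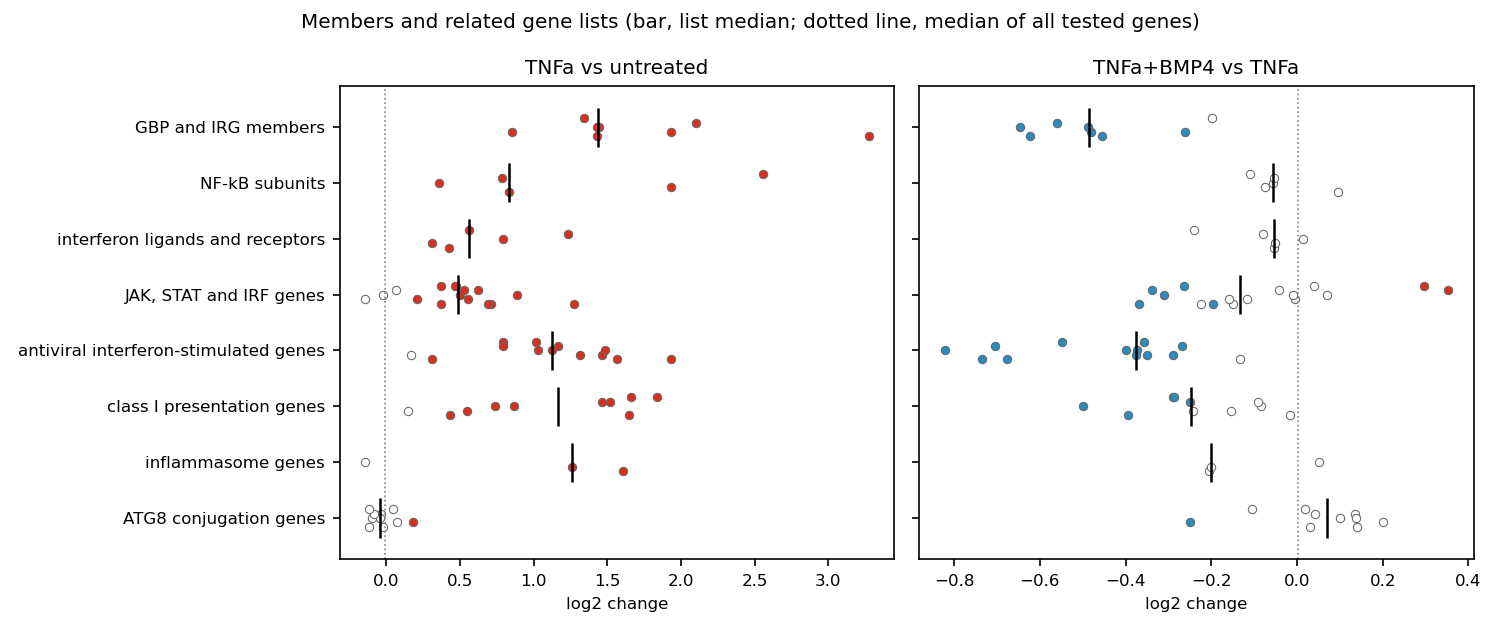
Log2 change of the tested genes of each list, 1 point per gene, with a bar at the list median (red, called higher; blue, called lower; white, not called), for TNFa against untreated cells and for TNFa+BMP4 against TNFa. The members have medians of 1.44 and -0.48, the antiviral genes 1.12 and -0.38 and the NF-kB subunits 0.83 and -0.06.

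The members' own profiles were close to one another. Over the 12 libraries with batch means removed, Pearson's r between pairs of members ran from 0.9345 to 0.9961 over 28 pairs, and the points share their libraries. The r of members to their own mean profile, of which each is a part, ran from 0.976 (Irgm2) to 0.994 (Gbp7). Genes outside the family reached values as high. Outside the family, the tested genes whose profiles were most like the members' mean were Amotl1 (r = 0.995), Gm12216 (0.995), Nub1 (0.995), Parp9 (0.994), Parp14 (0.994), Pxdn (0.990), Gch1 (0.990), Rnf213 (0.988), Parp10 (0.988) and Ogfr (0.987). Parp9, Parp14 and Parp10 are poly-ADP-ribose polymerase family genes, and Rnf213 encodes a large ubiquitin ligase. With TNFa these 10 genes changed by 0.53 (Pxdn) to 1.93 (Parp14), and in TNFa+BMP4 against TNFa by -0.74 (Parp14) to -0.11 (Ogfr). They were picked by likeness over the same 12 libraries, so changes with the signs of the members follow from the choice.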

How the data were processed

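RNA was measured in 12 polyA libraries, 3 for each of 4 groups. Tools in the submitters' processing notes are Trim Galore, HISAT2 and HOMER, with the build mm10. According to the header, exon reads of 1 transcript per gene were counted by HOMER, whose group tests took batch into account. The authors deposited log2 library values (the transformation is not named), and per pair of groups a log2 fold change and adjusted p-value. Here limma 3.58.1 (R 4.3.3) was fitted to the log2 library values, with terms for group and batch, variances moderated along a trend with level, and 7 residual degrees of freedom. Tested were the 11765 genes whose mean log2 was at least 4; of 25124 entries, 7423 were at 0 throughout. Adjustment was by Benjamini-Hochberg over these genes in each contrast, two-sided, and 0.05 was the threshold. The fit was tested on simulated data. Named genes are the 8 members, the other GBP and IRG genes, the 2 tested genes of each list with the largest TNFa change, 11 genes always named (1 of them is not reported here) and the 10 most alike in profile. Markers and genes outside that rule were named after their values were seen. Members and lists were chosen with earlier results of these data known. Alternatives changed the batch term, replicate block, variance trend, scaling, minimum level and the libraries included.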

Additional observations from a re-analysis of the deposited data

How the results depend on the processing

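All 8 members were called higher with TNFa, and with TNFa+BMP4 against untreated and against BMP4 cells, when each library was left out and under every other alternative except 2: without a batch term Irgm1 was not called, and at a minimum level of 6 only 6 members were tested. Replicate numbers did not pair libraries beyond batch (correlations of deviations within batch 2 from 0.0199 to 0.1638 over 6 pairs of groups). With the replicate block, 1279 genes were called in either direction in TNFa+BMP4 against TNFa, and 6 members were called lower. Irgm1 missed there at a limma adjusted p of 0.06356, and the interaction called 1 gene. The Irgm1 call in TNFa+BMP4 against TNFa was also lost in batch 2 alone, without a variance trend, without the minimum level and in the authors' deposited table.

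Without a batch term, 383 genes were called for TNFa against untreated cells, 869 for TNFa+BMP4 against untreated, 114 for BMP4 against untreated, 105 for TNFa+BMP4 against TNFa (0 members lower), 345 for TNFa+BMP4 against BMP4 and 0 for the interaction. For TNFa+BMP4 against TNFa, 2096 genes were called with only those groups in the fit and 906 with no minimum level. The interaction called 0 with no minimum level, 15 in batch 2 alone and 1 after quantile normalization, and the authors' deposited table calls 864 for BMP4 against untreated cells. The cause of these differences was not tested.

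Signs turned in values near 0 that were not called. In batch 2 alone BMP4 against untreated cells gave 0.0757 for Gbp2 and 0.0206 for Irgm1, TNFa+BMP4 against TNFa gave 0.0114 for Atl1 and -0.0517 for Nfkb1, and the interaction gave 4e-04 for Ifi47. Quantile normalization gave -0.0169 for Ifngr1 and -0.0099 for Map1lc3b in TNFa+BMP4 against TNFa. Leaving out 1 library at a time, BMP4 against untreated cells ran from -0.1149 to 0.0408 for Gbp2, -0.0145 to 0.2051 for Gbp3, -0.1708 to 0.0487 for Gbp7 and -0.1273 to 0.021 for Irgm1. TNFa+BMP4 against TNFa ran from -0.1831 to 0.0179 for Atl1, -0.029 to 0.0591 for Ifngr1, -0.0374 to 0.0607 for Map1lc3b and -0.0825 to 0.1721 for Nfkb1. Counts of called genes ran from 756 (without untreated replicate 1) to 1642 for BMP4 against untreated cells, from 752 (without TNFa replicate 1) to 1726 for TNFa+BMP4 against TNFa and from 0 to 7 for the interaction. With 3 libraries a group, the interaction is the least precise of these values.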
